A study of Homo sapiens with 6 samples.

Results

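The HSP90 machine of the cytosol is described here through 10 genes, chosen by name from the 60664 genes of a deposited count table: the chaperones HSP90AA1 and HSP90AB1, their cochaperones STIP1, AHSA1, CDC37, PTGES3, FKBP4 and CHORDC1, the heat shock transcription factor HSF1, and the small heat shock protein HSPB1. All 10 had 1 row in the table, and all 10 were among the 17258 genes that passed the filter on low counts. Poly-A RNA was sequenced from 3 libraries of a SAMD4A knockdown line and 3 libraries of control cells. All 6 libraries came from H7, a human embryonic stem cell line in wide use, kept on Matrigel in mTeSR Plus medium, with no treatment named in the labels. SAMD4A belongs to the Smaug proteins, which bind RNA, and the series asks what it does in self-renewal and lineage choice. Neither the knockdown construct nor whether the line is 1 clone is given in the sources used here. Nothing says that replicates were separate cultures, so a p-value covers the spread among these 6 libraries alone, and that spread may be technical.

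HSP90 is an ATP-driven chaperone that takes partly folded clients, many of them kinases and steroid hormone receptors, and brings them to an active form. STIP1 hands clients over from HSP70, CDC37 brings in kinases, FKBP4 serves steroid receptors, AHSA1 speeds the ATPase cycle and PTGES3 slows it in the closed state. HSF1 is the factor that switches on chaperone genes after heat and other protein stress, through repeated GAA and TTC units in DNA called heat shock elements, and HSP90 and HSP70 in turn hold HSF1 back. HSP90AA1 is the stress-inducible cytosolic form and HSP90AB1 the constitutive one.

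Heat shock elements were looked for because most of the 10 genes are known HSF1 targets. RefSeq promoter windows, each running from 250 bases before to 50 bases after a start site, were at hand for 8 of the 10 genes, in 13 windows. FKBP4 and HSF1 had none. Neighbouring units were searched as GAANNTTC and TTCNNGAA (2 units, N being any base), and as either of these followed after any 2 bases by a further alternating unit, GAA or TTC (3 units). Each of the 2-unit patterns reads the same on both strands, and the 3-unit patterns are each other's reverse complement. A match of 3 units also holds 2 overlapping matches of 2 units. A match of 3 units stood in a window of 3 genes, HSP90AA1, HSP90AB1 and CHORDC1, while 0.608% of all 27305 genes with a window and 0.49% of all 35116 windows had one. The windows that hold these matches are given on the strand of the gene, with the matches of 3 units in capitals.
HSP90AA1, chr14:102086995-102087294 (GRCh38.p14, minus strand): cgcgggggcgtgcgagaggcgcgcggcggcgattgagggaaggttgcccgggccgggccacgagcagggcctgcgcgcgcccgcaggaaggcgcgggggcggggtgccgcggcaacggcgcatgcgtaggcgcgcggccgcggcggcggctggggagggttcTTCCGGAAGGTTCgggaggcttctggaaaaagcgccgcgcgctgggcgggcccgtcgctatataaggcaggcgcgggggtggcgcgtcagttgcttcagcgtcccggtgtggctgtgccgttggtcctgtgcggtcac
HSP90AB1, chr6:44247693-44247992 (GRCh38.p14, plus strand): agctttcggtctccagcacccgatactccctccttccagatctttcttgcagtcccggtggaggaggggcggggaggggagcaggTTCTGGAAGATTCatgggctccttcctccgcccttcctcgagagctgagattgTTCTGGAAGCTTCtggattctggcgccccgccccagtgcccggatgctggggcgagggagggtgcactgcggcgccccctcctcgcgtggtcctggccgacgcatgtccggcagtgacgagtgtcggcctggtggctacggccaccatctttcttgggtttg
CHORDC1, chr11:90223000-90223299 (GRCh38.p14, minus strand): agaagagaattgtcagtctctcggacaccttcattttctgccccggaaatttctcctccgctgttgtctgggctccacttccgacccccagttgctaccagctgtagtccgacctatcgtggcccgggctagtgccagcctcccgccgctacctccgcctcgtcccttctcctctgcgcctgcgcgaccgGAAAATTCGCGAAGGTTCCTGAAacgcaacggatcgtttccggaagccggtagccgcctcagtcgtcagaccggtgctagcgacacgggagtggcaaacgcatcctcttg

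The windows of HSP90AA1 and HSP90AB1 that hold a match belong to start sites inside the deposited gene spans. In HSP90AA1 the match TTCCGGAAGGTTC ran from base -88 to base -76 relative to the start site, with a further match of 2 units from -68 to -61. HSP90AB1 held a pair of them, TTCTGGAAGATTC from -165 to -153 and TTCTGGAAGCTTC from -112 to -100. In CHORDC1 3 overlapping matches ran together from -60 to -38, with further matches of 2 units from -205 to -198 and from -23 to -16. HSPB1 and STIP1 held a single match of 2 units each, GAAGGTTC from -182 to -175 in HSPB1 and TTCCAGAA from 13 to 20 in STIP1. A match of 2 units was present in 16.2% of all genes with a window. In the windows of AHSA1, CDC37 and PTGES3 neither pattern occurred. A match describes letters in a window and does not show binding, and the letters not being there says nothing about the factor.

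**Figure D1:**
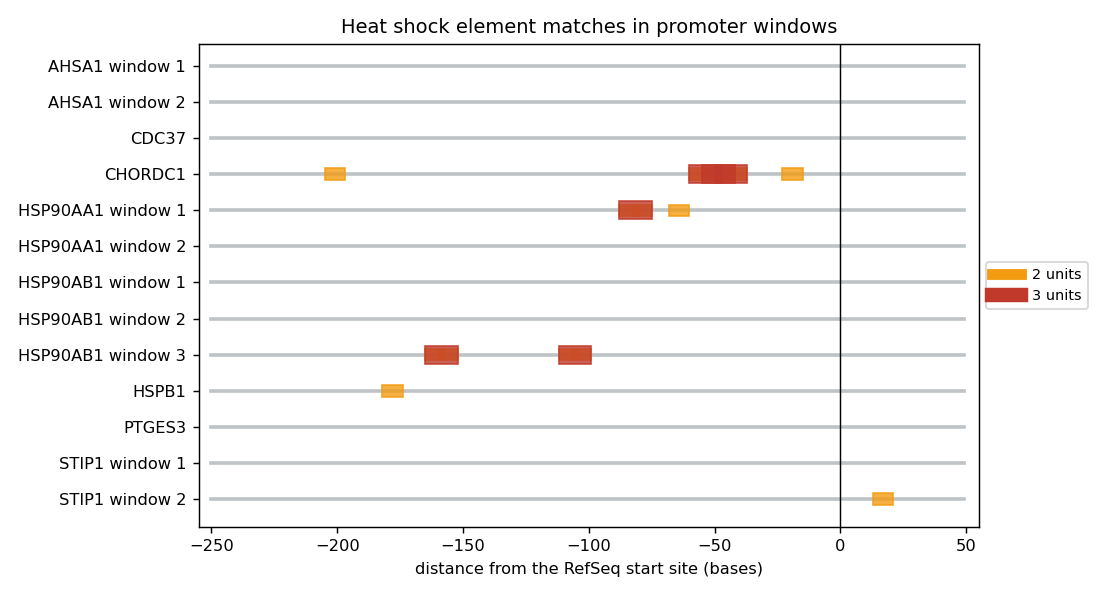
Positions of heat shock element matches in the 13 RefSeq promoter windows of 8 genes; the x axis is the distance from the start site in bases, grey lines are windows, orange boxes matches of 2 units and red boxes matches of 3 units. Red boxes appear in 1 window each of HSP90AA1, HSP90AB1 and CHORDC1.

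Library totals ran from 19270688 to 21355171 counts. SAMD4A, the targeted gene, had 27.4, 28.5 and 28.5 CPM in knockdown replicates 1 to 3, against 52.2, 56.0 and 49.8 CPM in control replicates 1 to 3, a log2 change of -0.90 ± 0.07 (SE, edgeR adjusted p = 9.0e-08). CPM stands for counts per 1e+06 counts of the library, scaled here with TMM factors. Of all genes tested, 51.7% passed the threshold, an adjusted p of 0.05 in the edgeR quasi-likelihood test: 4503 were higher and 4423 lower in knockdown, or 2704 and 6410 under total-count scaling. Pluripotency markers were abundant in both groups, with a summed level of 8090 to 8615 CPM in knockdown and 6665 to 6798 CPM in control, and 3 of 8 rose, led by DNMT3B, while NANOG and SALL4 fell. Knockdown replicate 1 stood apart in neuroectoderm markers, which summed to 101.5 CPM there, to 4.73 and 3.51 CPM in knockdown replicates 2 and 3, and to 65.6 to 77.5 CPM in control. Mitochondrial messages took 4.87% to 5.12% of the counts in knockdown libraries and 3.31% to 3.46% in control libraries. Primitive streak markers summed to 23.0, 10.7 and 8.64 CPM in knockdown replicates 1 to 3 and to 8.28 to 10.1 CPM in control, so replicate 1 was the highest here too. Amnion and trophoblast markers summed to 10.3 to 13.6 CPM in knockdown and 17.1 to 22.2 CPM in control. Endothelial markers summed to 231 to 280 CPM in knockdown and 164 to 196 CPM in control, nearly all from KDR and TEK, which rose. VWF averaged 1.3 and 2.0 CPM and CDH5 0.68 and 0.52 CPM in knockdown and control, without a call. PECAM1, at 0.12 CPM in knockdown and 0.19 CPM in control, was too low to test. SOX18 fell, from 1.37 CPM in control to 0.28 CPM in knockdown. Fibroblast markers summed to 686 to 734 CPM in knockdown and 805 to 859 CPM in control, nearly all from THY1, COL1A1 and COL1A2. THY1 alone averaged 391 CPM in knockdown and 456 CPM in control. DCN of the fibroblast list was at 0 in every library. Without knockdown replicate 1, 9 of the 10 genes still rose and none fell. The part of the other differences in the results was not tested. In bulk RNA a change in the share of cells of a type and a change in RNA per cell cannot be told apart.

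Of the 10 genes, 9 rose in SAMD4A knockdown and none fell by the edgeR test, while HSF1 did not pass it. Among all genes tested 26.1% rose, and 43.1% rose among the 6692 genes whose mean reached 30 CPM, as it did for each of the 10. The median log2 change of the 10 was 0.55, against -0.01 over all genes tested. In the same 9 genes every knockdown library was above every control library, which held in that direction for 28.9% of all genes tested, and in either direction for 58.3%. The 10 genes were chosen with results of these data known, so these counts are a description of them. Under total-count scaling, which puts the median of all genes at -0.17, 7 rose and HSF1 fell, and PTGES3 and HSPB1 no longer passed.

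**Figure D2:**
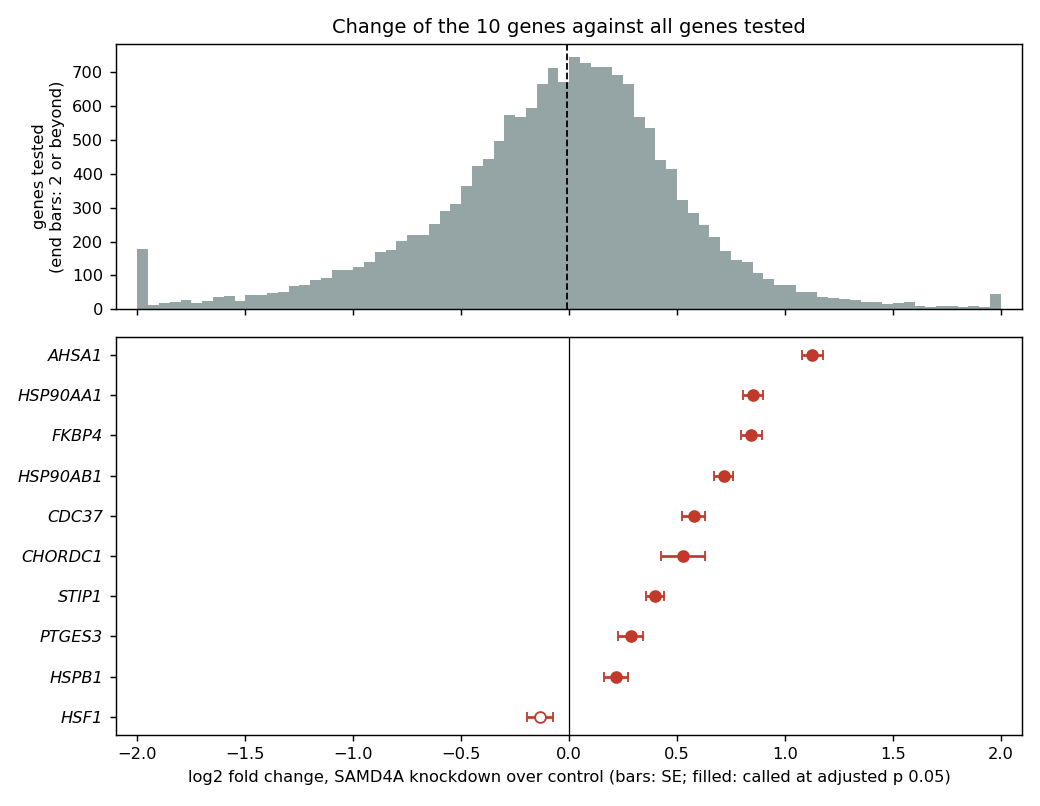
Upper panel: the number of tested genes at each log2 fold change, SAMD4A knockdown over control, with the dashed line at the median of -0.01 and the end bars also holding genes past 2 in size. Lower panel: log2 change of the 10 genes with SE (filled points passed the edgeR test), from AHSA1 at 1.13 to HSF1 at -0.14.

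Both cytosolic HSP90 genes rose, HSP90AA1 by 1.81 fold and HSP90AB1 by 1.64 fold. HSP90AA1 (ENSG00000080824, chromosome 14, 102080742 to 102139699 in GRCh38) had 2481, 2348 and 2350 CPM in knockdown replicates 1 to 3, against 1256, 1305 and 1414 CPM in control replicates 1 to 3. The knockdown libraries lay close together and far above the control libraries, in which replicate 3 was the highest. Its log2 fold change was 0.85 ± 0.05 (SE, edgeR adjusted p = 1.1e-09), at or above that of 95.7% of genes tested. HSP90AA1 overlaps WDR20 on the other strand by 197 bases, and WDR20 held 1377 counts in knockdown and 1415 in control. HSP90AB1 (ENSG00000096384, chromosome 6, 44246166 to 44253888) had 4470, 4268 and 4440 CPM in knockdown and 2572, 2631 and 2822 CPM in control. Control replicate 3 was again the highest of its group and still below each knockdown library. HSP90AB1 had a log2 change of 0.72 ± 0.04 (SE, edgeR adjusted p = 2.7e-09).

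HSP90AB1 was the more abundant of the pair in each of the 6 libraries. Per kilobase of exon, which allows levels to be set between genes, HSP90AB1 reached 1719 ± 42.7 CPM in knockdown and 1047 ± 51.0 CPM in control (SD, n = 3 each). HSP90AA1 reached 741 ± 23.7 CPM per kilobase in knockdown and 410 ± 25.0 CPM per kilobase in control (SD, n = 3 each). The ratio of HSP90AA1 to HSP90AB1 was 0.439, 0.435 and 0.419 in knockdown replicates 1 to 3, against 0.387, 0.393 and 0.397 in control. The inducible form thus took a slightly larger share of the pair in every knockdown library. The difference of the log2 ratio was 0.14 and does not depend on library scaling. An exact two-sided permutation test gave p = 0.1, the smallest value that 3 against 3 libraries allow. Together these genes took 0.642% ± 0.012 of all counts in knockdown and 0.422% ± 0.021 in control, and all 10 genes took 0.862% ± 0.011 in knockdown and 0.597% ± 0.025 in control (SD, n = 3 each), again with an exact p = 0.1.

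Near-identical pseudogene copies can exchange reads with their parents. The table lists 5 pseudogenes named for HSP90AA and 5 for HSP90AB. The HSP90AA copies held 1423 counts in knockdown and 814 in control, which was 1.02% of the counts of HSP90AA1 in knockdown and 0.983% in control. The HSP90AB copies held 1289 counts in knockdown and 789 in control, which was 0.504% of the counts of HSP90AB1 in knockdown and 0.472% in control. Most of these counts lay in HSP90AA2P and HSP90AB3P, both higher in knockdown along with their parents, and adding all copies to the parents left the difference of the log2 ratio at 0.14. The assignment of single reads between parent and copy is uncertain.

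**Figure D3:**
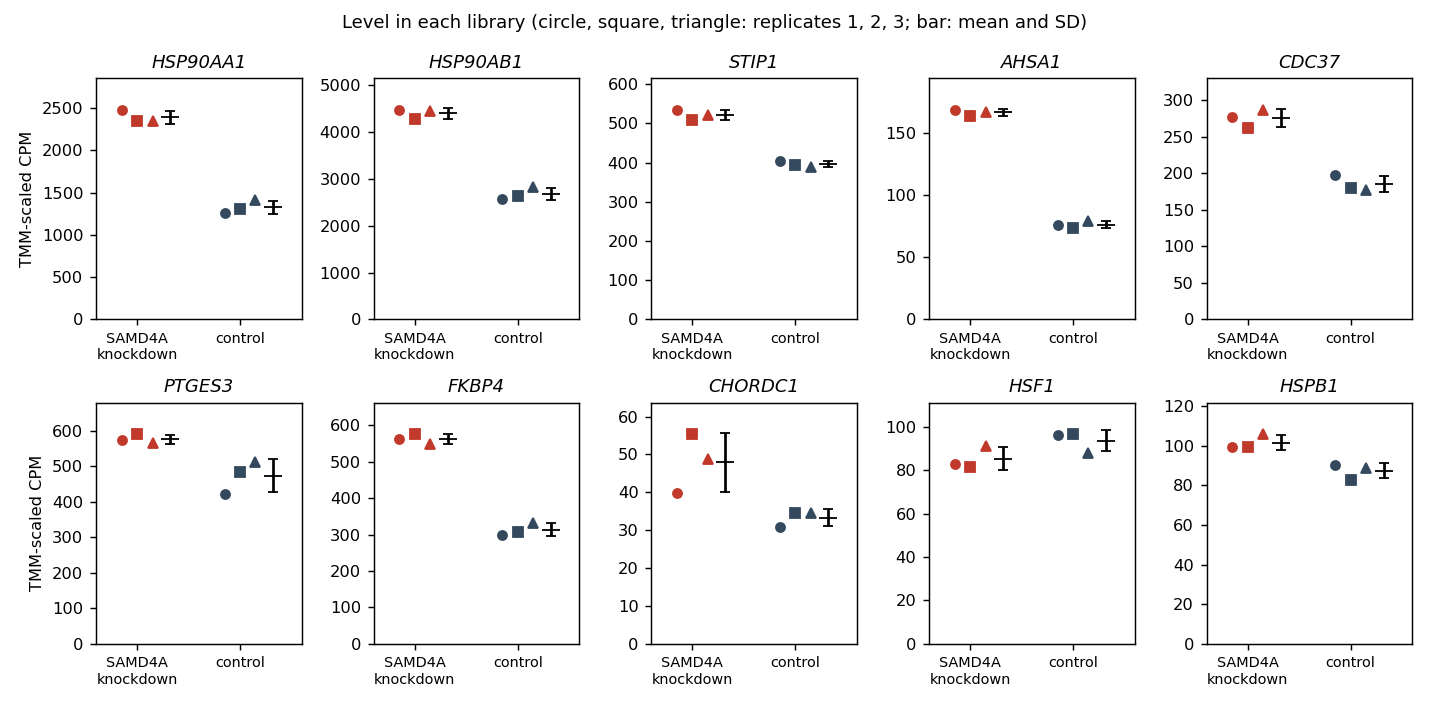
TMM-scaled CPM of the 10 genes in each library, SAMD4A knockdown at the left and control at the right of each panel, with symbols for replicates 1 to 3 and a bar for mean and SD; each y axis starts at 0. The groups do not overlap in 9 panels and overlap for HSF1.

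The cochaperones that act on the ATPase cycle moved by unequal amounts. AHSA1 (ENSG00000100591, chromosome 14, 77457870 to 77469472), the activator of the HSP90 ATPase, showed the largest change of the 10 genes, 2.18 fold. It had 168.7, 163.8 and 167.3 CPM in knockdown replicates 1 to 3, against 76.4, 73.5 and 79.0 CPM in control. The libraries of each group were nearly level, and the groups lay far apart. The log2 change was 1.13 ± 0.05 (SE, edgeR adjusted p = 1.3e-10), at or above that of 98.0% of genes tested. AHSA1 overlaps VIPAS39 on the other strand by 83 bases, and VIPAS39 held 1392 counts in knockdown and 1732 in control, so its counts were not higher in knockdown. PTGES3 (ENSG00000110958, chromosome 12, 56663341 to 56688408), the p23 protein that stabilises the closed ATP-bound state, rose by only 1.22 fold. Its level was 573.6, 589.6 and 564.5 CPM in knockdown, against 421.9, 484.6 and 512.0 CPM in control. Control libraries spread widely, and control replicate 3 came near the lowest knockdown library. PTGES3 had a log2 change of 0.28 ± 0.06 (SE, edgeR adjusted p = 0.00080), and under total-count scaling it was 0.13 (edgeR adjusted p = 0.078).

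Cochaperones that deliver or sort clients rose as well. FKBP4 (ENSG00000004478, chromosome 12, 2794970 to 2805423), the immunophilin FKBP52 of steroid receptor complexes, had 561.9, 575.7 and 549.0 CPM in knockdown replicates 1 to 3, against 300.1, 306.3 and 332.9 CPM in control. The groups lay far apart, with a log2 change of 0.84 ± 0.05 (SE, edgeR adjusted p = 1.6e-09). CDC37 (ENSG00000105401, chromosome 19, 10391133 to 10420121), the adaptor for kinase clients, had 277.9, 262.9 and 287.1 CPM in knockdown and 197.5, 180.1 and 177.4 CPM in control. The groups were clearly apart, with control replicate 1 the highest of its group. CDC37 had a log2 change of 0.58 ± 0.05 (SE, edgeR adjusted p = 3.1e-07). CDC37 overlaps PDE4A on the other strand by 3349 bases, and PDE4A held 599 counts in knockdown and 601 in control. STIP1 (ENSG00000168439, chromosome 11, 64185272 to 64204543), which links HSP70 to HSP90, had 534.5, 509.1 and 521.2 CPM in knockdown and 404.6, 393.4 and 389.1 CPM in control. Its rise was small and even across libraries, with a log2 change of 0.40 ± 0.04 (SE, edgeR adjusted p = 1.4e-06). CHORDC1 (ENSG00000110172, chromosome 11, 90200429 to 90223077), a zinc-binding cochaperone, was the least abundant of the 10, with 39.8, 55.4 and 48.8 CPM in knockdown and 30.8, 34.6 and 34.5 CPM in control. Knockdown replicate 1 was the lowest of its group and the nearest to control. CHORDC1 had a log2 change of 0.53 ± 0.10 (SE, edgeR adjusted p = 0.00050).

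Set against cytosolic HSP90 itself, the cochaperones differed in direction. Levels per kilobase were divided by the sum of HSP90AA1 and HSP90AB1, which was 2460 ± 60.4 CPM per kilobase in knockdown and 1458 ± 75.9 in control (SD, n = 3 each). PTGES3 averaged 12.3 ± 0.54 per 100 of HSP90 in knockdown and 17.1 ± 1.01 in control (SD, n = 3 each), with no overlap between the groups. STIP1 stood at 9.92, 9.92 and 9.88 per 100 in knockdown replicates 1 to 3, against 13.5, 12.8 and 11.8 in control. Both were thus lower relative to HSP90 in every knockdown library, although each was higher in absolute CPM. AHSA1 was higher relative to HSP90, at 5.01, 5.11 and 5.08 in knockdown and 4.09, 3.83 and 3.83 in control. FKBP4 kept close to the same proportion, slightly higher in every knockdown library, at 6.01, 6.46 and 5.99 in knockdown and 5.79, 5.75 and 5.81 in control. CDC37 averaged 6.93 ± 0.23 in knockdown and 7.87 ± 0.82 in control, and CHORDC1 averaged 0.637 ± 0.119 in knockdown and 0.744 ± 0.037 in control (SD, n = 3 each), with overlapping groups for both. Exact two-sided permutation tests gave p = 0.1 for PTGES3, STIP1, AHSA1 and FKBP4, the smallest possible value, p = 0.2 for CDC37 and p = 0.3 for CHORDC1, or 0.15, 0.24 and 0.3 after Benjamini-Hochberg adjustment over the 6 ratios. These 6 ratios were chosen after the values of the genes were seen, and none can pass a threshold of 0.05. Their directions follow from the rises of the cochaperones and of the HSP90 pair given above, so they add no separate result.

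**Figure D4:**
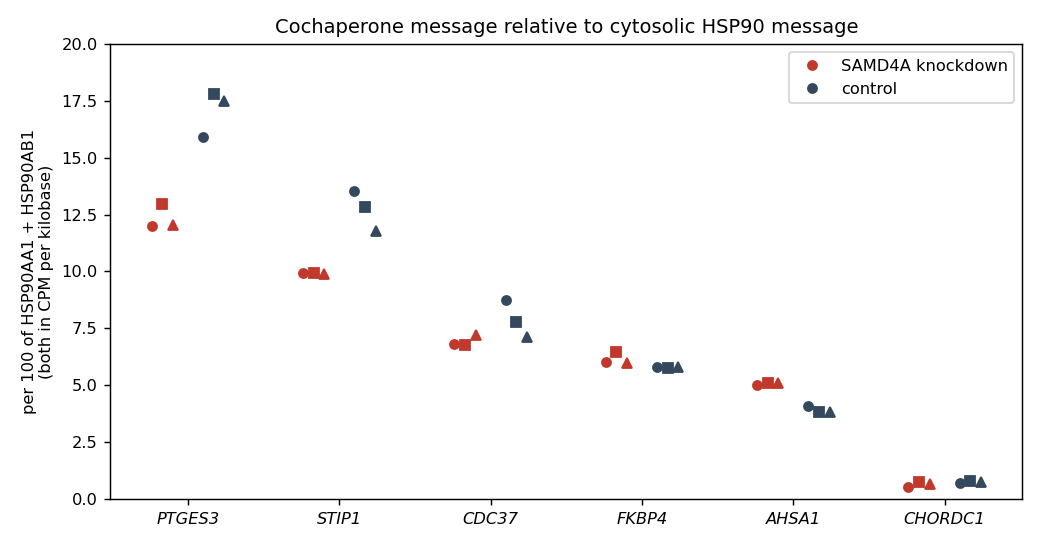
Level of 6 cochaperone messages per 100 of HSP90AA1 plus HSP90AB1, all in CPM per kilobase of exon, in SAMD4A knockdown (red, left) and control (dark, right); symbols stand for replicates 1 to 3. PTGES3 and STIP1 lie lower and AHSA1 higher in knockdown, while CDC37 and CHORDC1 overlap.

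HSF1 message was the exception among the 10. HSF1 (ENSG00000185122, chromosome 8, 144291591 to 144314720) had 82.8, 81.8 and 91.5 CPM in knockdown replicates 1 to 3, against 96.3, 96.7 and 88.1 CPM in control. Knockdown replicate 3 was above control replicate 3, so the groups overlapped. The log2 change was -0.14 ± 0.06 (SE, edgeR adjusted p = 0.075). HSF1 passed as lower without knockdown replicate 3 (-0.18, edgeR adjusted p = 0.039), without control replicate 3 (-0.18, edgeR adjusted p = 0.040), with upper-quartile factors (-0.18, edgeR adjusted p = 0.024) and under total-count scaling (-0.29, edgeR adjusted p = 0.00087). Over its 15 alternatives the log2 fold change ran from -0.29 to -0.10, with adjusted p from 0.00087 to 0.26. HSF1 overlaps DGAT1, which held 1449 counts in knockdown and 1255 in control, by 137 bases on the other strand, and the strand setting of the counts is not given, though the library kit keeps strand. A message level does not show the activity of HSF1, which is set largely on the protein.

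HSPB1 (ENSG00000106211, chromosome 7, 76302673 to 76304295), an ATP-independent chaperone known as HSP27, had the smallest rise of the 9. It had 99.1, 99.6 and 105.8 CPM in knockdown replicates 1 to 3, against 90.1, 82.9 and 88.7 CPM in control. The groups did not overlap but lay close. The log2 change was 0.22 ± 0.05 (SE, edgeR adjusted p = 0.0037), and under total-count scaling it was 0.06 (edgeR adjusted p = 0.38). Of the other 10 small heat shock protein genes looked at, only 4 had enough counts to be tested, CRYAB, HSPB6, HSPB8 and HSPB11, and none passed. None was below an unadjusted p of 0.05 either, and DESeq2 and limma-voom called 0. CRYAB and HSPB8 stand also in the list of HSF1 targets. HSPB8, which works with BAG3 in clearing misfolded proteins, was the nearest, at 13.2 CPM in knockdown and 10.7 CPM in control, a log2 change of 0.30 ± 0.18 (SE, edgeR adjusted p = 0.19), and it passed without knockdown replicate 1 (0.52, edgeR adjusted p = 0.00036). HSPB2 and HSPB3 had 0 CPM in both groups.

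Per kilobase of exon the 10 genes kept nearly the same order of levels in both groups. In knockdown HSP90AB1, HSP90AA1, PTGES3 and STIP1 were followed by CDC37 at 171 ± 7.56, FKBP4 at 151 ± 3.61, HSPB1 at 131 ± 4.79 and AHSA1 at 125 ± 1.88 CPM per kilobase (SD, n = 3 each), then HSF1 and CHORDC1. HSPB1 and AHSA1 lay close there, though their libraries did not overlap. In control the order was HSP90AB1, HSP90AA1, PTGES3 at 249 ± 24.3, STIP1 at 185 ± 3.74, CDC37 at 114 ± 6.74, HSPB1 at 112 ± 4.87, FKBP4 at 84.3 ± 4.69, AHSA1 at 57.0 ± 2.05, HSF1 at 43.9 ± 2.28 and CHORDC1 at 10.8 ± 0.71 CPM per kilobase (SD, n = 3 each). CDC37 and HSPB1 did not differ beyond their spread there.

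Outside the cytosol, the HSP90 of the endoplasmic reticulum rose and the mitochondrial one did not pass. HSP90B1, which folds receptors and integrins in the endoplasmic reticulum, averaged 970 ± 6.09 CPM in knockdown and 642 ± 47.9 CPM in control (SD, n = 3 each), a log2 change of 0.60 ± 0.05 (SE, edgeR adjusted p = 1.2e-07). TRAP1, the mitochondrial form, had 336 CPM in knockdown and 328 CPM in control, a log2 change of 0.03 ± 0.05 (SE, edgeR adjusted p = 0.60). Under total-count scaling TRAP1 was among the genes called lower.

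Of 25 further HSP90 cochaperones 23 were tested, 12 rose and 2 fell, with a median log2 change of 0.26 against -0.01 over all genes. Among all genes tested 26.1% rose and 25.6% fell, and 43.1% rose among those averaging 30 CPM or more. CACYBP, which joins HSP90 to ubiquitin ligases and is counted also in the list of HSF1 targets, averaged 205 ± 2.90 CPM in knockdown and 126 ± 12.7 CPM in control (SD, n = 3 each), a log2 change of 0.71. NUDC, a p23-like protein needed for cell division, rose by 0.60 and SGTA, which sorts tail-anchored proteins, by 0.39. FKBP5, the immunophilin that holds steroid receptors inactive and is a glucocorticoid-induced gene, went against FKBP4, with 113 ± 14.3 CPM in knockdown and 135 ± 3.28 CPM in control (SD, n = 3 each), a log2 change of -0.25 ± 0.07 (SE, edgeR adjusted p = 0.0076). That call was lost without knockdown replicate 3 (-0.18, edgeR adjusted p = 0.059). FNIP2, which slows the HSP90 ATPase, was at -0.26 (edgeR adjusted p = 0.048) and lost its call in 8 of 15 alternatives. Under total-count scaling, 7 of this list rose and 5 fell.

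Of the 11 genes of the R2TP and TTT complexes, which work with HSP90 on large kinases and polymerases, 10 were tested, 3 rose and 2 fell, with a median of 0.10, or 3 and 4 with a median of -0.05 under total-count scaling. These counts were near the shares of all genes tested, 26.1% higher and 25.6% lower. The 3 that rose were TELO2, TTI2 and TTI1, the TTT complex, which stabilises the PIKK family of kinases: TELO2 by 0.56, TTI2 by 0.56 and TTI1 by 0.36 on the log2 scale. RUVBL1 and RUVBL2, the ATPases of R2TP, did not pass, at -0.06 (edgeR adjusted p = 0.285) and 0.10 (edgeR adjusted p = 0.17). SPAG1, a dynein assembly factor at 2.25 ± 0.31 CPM in knockdown and 4.93 ± 1.03 CPM in control (SD, n = 3 each), fell by 1.13. URI1 was at -0.17 (edgeR adjusted p = 0.026), a call lost without knockdown replicate 3 (edgeR adjusted p = 0.15) or control replicate 3 (edgeR adjusted p = 0.13).

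Among 19 heat shock factors and proteins that bind or modify HSF1, 17 were tested, 4 rose and 5 fell, with a median of -0.01, or 4 and 9 under total-count scaling. The counts with TMM factors were near the shares of all genes tested, 26.1% higher and 25.6% lower. VCP, the segregase that pulls proteins out of complexes for degradation, averaged 526 ± 9.90 CPM in knockdown and 258 ± 5.34 CPM in control (SD, n = 3 each), a log2 change of 1.03. DAXX, a histone chaperone reported to help HSF1 act, rose by 0.58 and HSBP1, an HSF1-binding repressor, by 0.33. NEDD4, a ubiquitin ligase that targets HSF1, averaged 11.5 ± 1.29 CPM in knockdown and 26.6 ± 1.67 CPM in control (SD, n = 3 each) and fell by 1.21. The deacetylase SIRT1, which keeps HSF1 on DNA, fell by 0.34 and the acetyltransferase CREBBP by 0.32. HSF2, the partner of HSF1 on DNA, did not pass, at -0.01 ± 0.12 (SE, edgeR adjusted p = 0.93), and HSF4 and HSF5 were too low to test.

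Of 26 other HSF1 target genes all were tested, 20 rose and 2 fell, with a median of 0.50. Of all genes tested 26.1% rose and 25.6% fell, and of those averaging 30 CPM or more 43.1% rose. The smallest adjusted p among the rises were those of HSPA8, DNAJA1 and HSPA1B: HSPA8 averaged 2468 ± 87.4 CPM in knockdown and 264 ± 3.41 CPM in control (SD, n = 3 each) and rose by 3.23 on the log2 scale, DNAJA1 rose by 1.56 and HSPA1B, whose counts cannot be separated from those of its copy HSPA1A with certainty, by 2.96. ZFAND2A, an arsenite- and heat-induced proteasome cofactor, went the other way, with 3.68 ± 0.27 CPM in knockdown and 11.9 ± 0.92 CPM in control (SD, n = 3 each), a log2 change of -1.69 ± 0.14 (SE, edgeR adjusted p = 1.3e-07). HSPA4L, an HSP110-type gene, fell by 0.65. SERPINH1 and CRYAB, also targets, did not pass, at 0.08 (edgeR adjusted p = 0.21) and -0.50 (edgeR adjusted p = 0.26).

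HSP90 acts on client proteins, whose levels were not measured here. Of 30 client messages 29 were tested, 13 rose and 8 fell, with a median of 0.18, or 10 and 8 under total-count scaling. Of all genes tested 26.1% rose and 25.6% fell, and of those averaging 30 CPM or more 43.1% rose. ERBB2, a receptor kinase that depends on HSP90 strongly, averaged 620 ± 43.7 CPM in knockdown and 290 ± 19.4 CPM in control (SD, n = 3 each), a log2 change of 1.10. TERT, the catalytic part of telomerase, rose by 0.91 and AKT1 by 0.49. CDK6, a cell cycle kinase client of CDC37, fell by 1.14, with 44.5 ± 4.07 CPM in knockdown and 98.2 ± 7.77 CPM in control (SD, n = 3 each). BRAF fell by 0.51 and NR3C1, the glucocorticoid receptor, by 0.85.

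**Figure D5:**
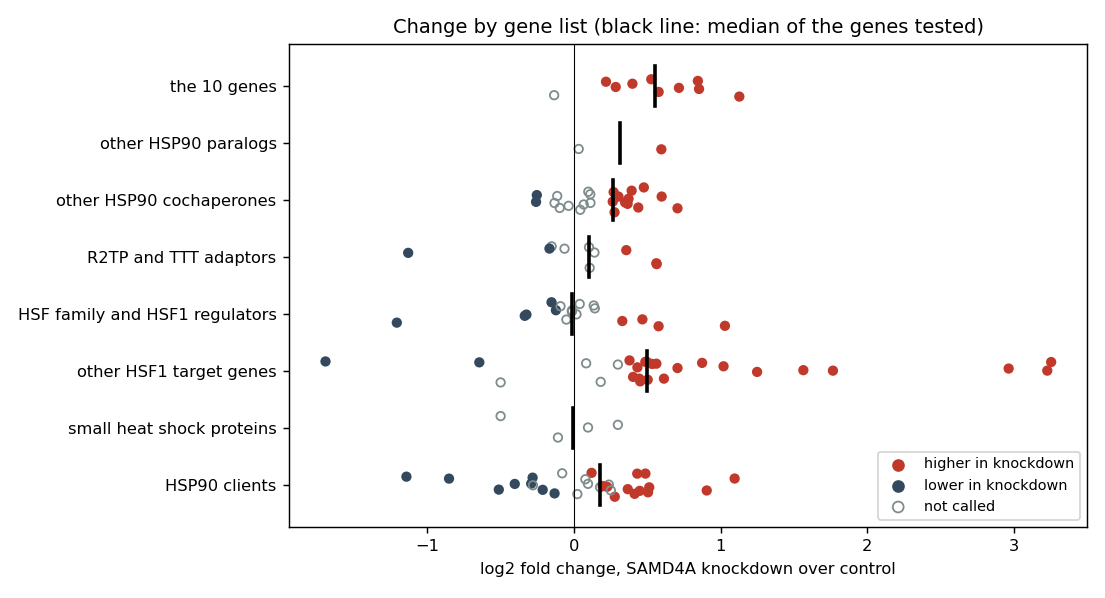
Log2 fold change, SAMD4A knockdown over control, of the 10 genes and of 7 related gene lists; each point is a tested gene, filled where it passed the edgeR test, and the black line is the median of the tested genes. Medians run from 0.55 for the 10 genes and 0.50 for other HSF1 targets to -0.01 for HSF1 regulators and for small heat shock proteins.

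Genes with the most similar course to HSP90AA1 and HSP90AB1 were taken by Euclidean distance over the 6 libraries. The distance was between log2 CPM values relative to the control mean. Candidates were 10234 genes with a symbol, outside the 10, averaging 10 CPM or more. Nearest to HSP90AA1 were ZC3HAV1, an antiviral RNA-binding protein, at a distance of 0.064, then MT-ATP8 at 0.074, PPIA, the cyclophilin A prolyl isomerase, at 0.091, PPA1 at 0.099 and SZRD1 at 0.10. Nearest to HSP90AB1 were DIAPH1, a formin, at 0.032, NCL, the nucleolar protein nucleolin, at 0.046, ELOVL6 at 0.056 and RPL23 at 0.060. None of the neighbours named is a heat shock protein, but the 10 genes themselves were left out of the search. It therefore does not show whether other members of the HSP90 machine lie nearer. With 2 groups, the distance is small for any gene with a rise of like size and a small spread.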

How the data were processed

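RNA of 3 SAMD4A knockdown and 3 control libraries of H7 cells was read on an Illumina NovaSeq after TruSeq Stranded mRNA preparation, per the labels' protocols. The authors deposited raw counts per gene. HISAT2, HTSeq and GRCh38 appear in the submitters' processing notes. The sources used here do not give tool versions or how strand was handled in counting. Exon lengths and coordinates are an annotation the authors deposited. With R 4.3.3 and edgeR 4.0.16, low-count genes were removed with filterByExpr, libraries were scaled with TMM factors and groups compared with the two-sided quasi-likelihood test at a Benjamini-Hochberg adjusted p of 0.05 over 17258 genes. The SE is the size of the log2 change over the root of F. The biological coefficient of variation was 7.47%. CPM per kilobase divides TMM-scaled CPM by exon length. Log2 CPM for distances had a prior count of 2. Alternatives used limma 3.58.1 and DESeq2 1.42.0, other scalings and filters, a replicate block, and fits without each single library. The script was tested on simulated counts. The 10 genes and all lists were chosen with earlier results of these data known; named genes are the 10, SAMD4A, the nearest genes, and up to 3 called genes each way per list by adjusted p, while other genes named were chosen after their values were seen. A gene that the rule takes is not reported here. Genes were matched by symbol, and promoter windows come from RefSeq (GRCh38.p14).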

Additional observations from a re-analysis of the deposited data

How the results depend on the processing

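The number of the 10 genes called was 7 higher and 1 lower with scaling by total counts only, 9 and 1 with upper-quartile factors, and 9 and 0 with the other scalings, both other filters, DESeq2, limma-voom and the replicate block. Leaving out 1 library each gave 9 to 10 calls, the tenth being HSF1 as lower. No direction of the 10 genes reversed in any of 15 alternatives, and the lowest log2 change of each came with total counts only. With total counts only both other HSP90 paralogs, 2 in all, were called, TRAP1 as lower. Without knockdown replicate 1, 1 small heat shock protein, HSPB8, was called as higher, against 0 without any other library; the cause was not tested. Same-numbered knockdown and control libraries showed no shared deviation (correlations of -0.02, -0.01 and -0.04 over genes). These values cannot show whether the libraries were prepared in pairs, which the labels do not say. With replicate number as a block 8434 genes were called, 9 of the 10 among them, against 8926 without it. URI1 lost its call with that block (edgeR adjusted p = 0.05). The exact tests on 3 against 3 libraries cannot go below p = 0.1, so they say nothing about stability. CHORDC1, with 647 to 1088 counts in a library, had the largest SE of the 10.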

Other observations

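Promoters with a match of 3 heat shock element units were counted over all tested genes with a window. HSP90AA1, HSP90AB1 and CHORDC1 are included in these counts, among the genes that rose. Of 62 tested genes with such a match 22 rose (35.5%) and 11 fell (17.7%) in SAMD4A knockdown, with a median log2 fold change of 0.07. Among 11967 tested genes with a window and no such match 28.4% rose and 27.0% fell, with a median of -0.01. The difference was not tested. Of 23 other HSF1 target genes with a window, 6 held a match of 3 units and 16 a match of 2 units. Those 6 are also among the 62, and their list was chosen with earlier results of these data known. AHSA1, with the largest rise of the 10 genes, was among those with no match in either of its windows. The 3 genes with a match of 3 units had log2 fold changes of 0.85, 0.72 and 0.53. Any relation between matches and changes in the 10 genes was not tested, and FKBP4 and HSF1 had no window.

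AHSA1 stood at 0.505, 0.515 and 0.514 of STIP1 per kilobase in knockdown replicates 1 to 3, against 0.302, 0.299 and 0.325 in control, without overlap (exact two-sided permutation p = 0.1, the smallest possible). This ratio was not planned. Its lack of overlap follows from AHSA1 lying higher and STIP1 lower relative to HSP90 in every knockdown library, so it adds no separate result. AHSA2P, a relative of AHSA1 listed as a transcribed unitary pseudogene, held 520, 514 and 519 counts in knockdown and 588, 513 and 560 counts in control. Its log2 change was 0.01 (edgeR adjusted p = 0.96), against 1.13 for AHSA1.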
